A study of Mus musculus with 8 samples.

Results

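The genes described here are 41 mouse genes of the interferon response, with the chemokines Cxcl9, Cxcl10 and Cxcl11 that act on the receptor CXCR3. They were listed by name, and they are 41 of the 63329 gene names on the arrays used. All 41 had a probe on both array designs, and 25 had a probe of identical sequence on both.

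The study followed Lin- BM cells, bone marrow cells depleted of cells with lineage markers, CD5, CD11b, CD45R, 7-4, Gr-1 and Ter119 among them, after transplantation through the tail vein. The donors were female C57Bl6/J-Tg(UBCGFP)30Scha/J mice of 6 to 8 weeks, which carry eGFP under the ubiquitin C promoter. The recipients were male hemophilia A mice of the strain B6;129S4-F8tm1Kaz/J, also 6 to 8 weeks old, whose livers had been injured with acetaminophen. BM-derived hepatocytes were released from the recipient livers by collagenase perfusion, separated from non-parenchymal cells by a low-speed spin and sorted for eGFP after 1 month (arrays B1 and B2) or 5 months (arrays G1 and G3). Lin- BM cells (arrays L3 and L4) and primary hepatocytes (arrays H2 and H4) were the references, and the labels and methods do not name the strain or treatment of the mice that gave the primary hepatocytes. By the methods each experiment used cells pooled from 3 mice, so the spread between the 2 arrays of a group is a spread between pools. Lin- BM cells and 1-month cells lay on 1 slide, and primary hepatocytes and 5-month cells on another slide of another design. Slide, design and scan therefore cannot be told apart from group in any comparison across slides, and only the 25 members with a shared probe were compared there.

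Interferons are secreted proteins that warn cells of infection. Type I interferons signal through the receptor IFNAR to a complex that holds STAT2 and IRF9 and binds the interferon-stimulated response element (ISRE), and interferon gamma signals through its own receptor to factors that bind the gamma-activated sequence (GAS). The induced genes encode sensors of foreign nucleic acids, enzymes that block viral replication, GTPases that attack vacuoles of pathogens, subunits of the immunoproteasome, and chemokines that draw T and NK cells, and injured or infected liver is known for producing CXCR3 chemokines.

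Signals are given on the log2 scale with the 75th percentile of each array set to 0, so that a difference of 1 is a doubling, and n is 2 arrays a group throughout, which limits the precision. The p-values measure only the spread between these arrays. A gene was called changed in a comparison when limma gave an adjusted p under 0.05 (Benjamini-Hochberg, over all genes tested) and a log2 change beyond 0.6 in either direction. Of the spots, 47.7% to 58.6% were well above background on an array, no spot was saturated, and the 2 arrays at 1 month were the dimmest (upper quartile 75.5 and 89.5 intensity units, against 122.2 to 193.4 on the others). All 11 hepatocyte markers with a probe, albumin among them, were well above background on both arrays at 1 month, whereas Alb, Apoa1, Cyp2e1, Fgb and Ttr were so on neither Lin- BM cell array. Markers of cells that the depletion targets were present in the Lin- BM cells: all 11 neutrophil markers and all 18 T and NK cell markers were well above background on both arrays.

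**Figure D1:**
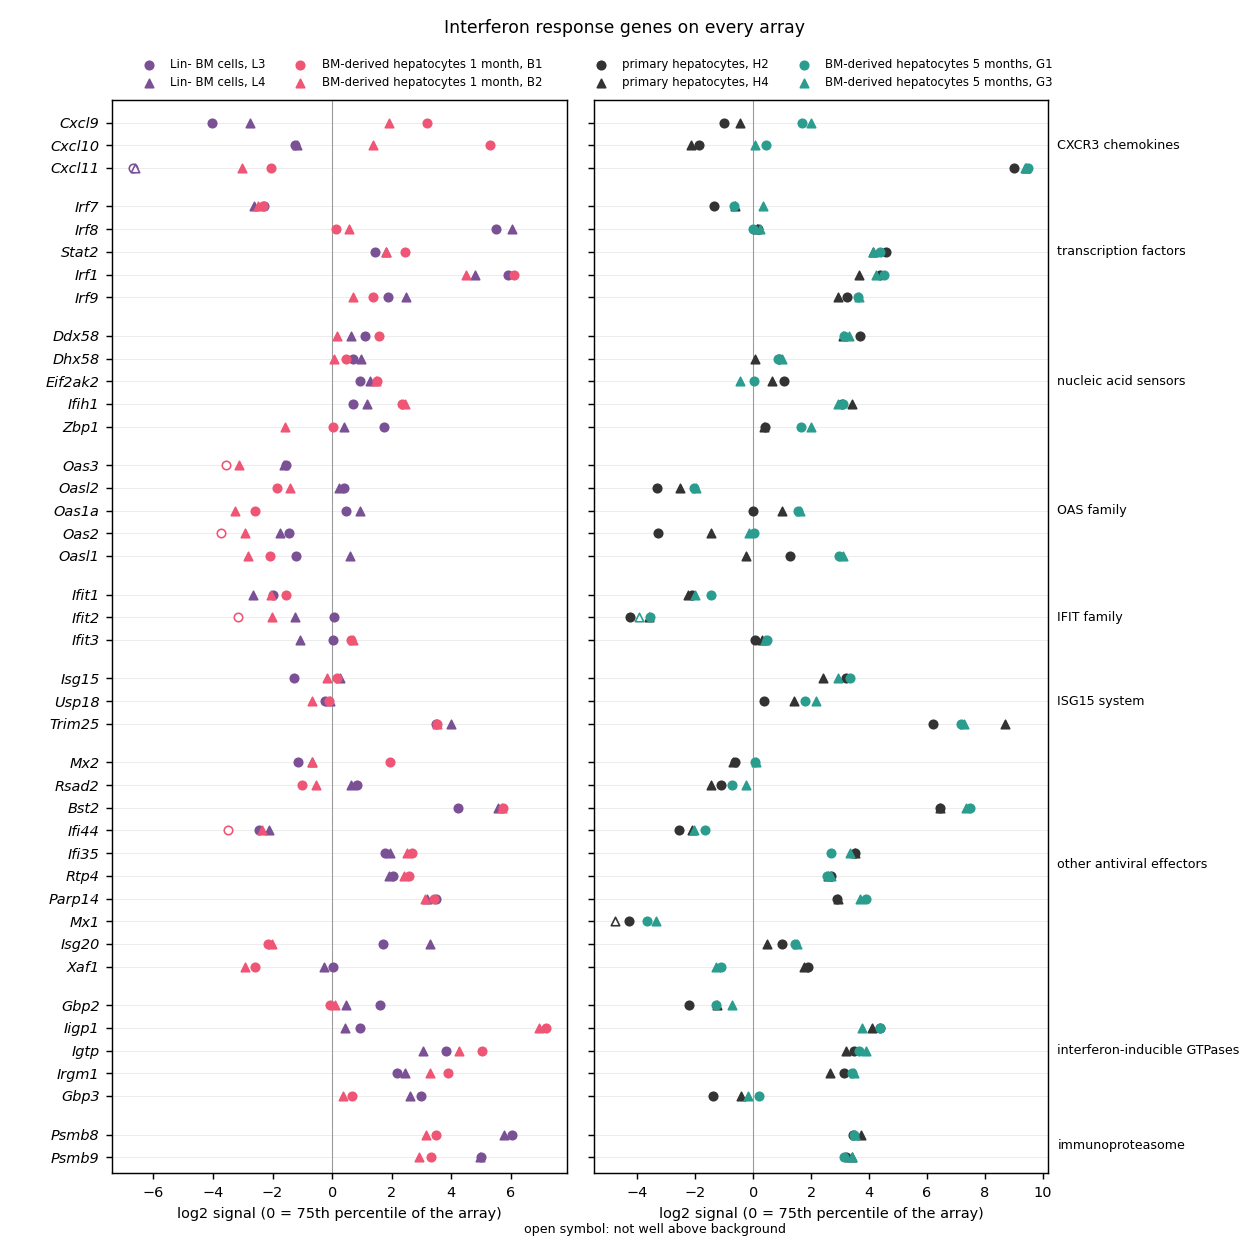
Log2 signal of each member on every array (x axis, 0 is the 75th percentile of the array), with genes in rows grouped by role. The left panel shows Lin- BM cells and 1 month, the right panel primary hepatocytes and 5 months; open symbols were not well above background, and a gene has no symbol where it was not tested on that slide (Mx1 on the left, Oas3 on the right). Cxcl9, Cxcl10 and Iigp1 stand far to the right at 1 month, Irf8 and Isg20 there lie far to the left of the Lin- BM cell arrays, and at 5 months Cxcl9 and Cxcl10 lie to the right of both primary hepatocyte arrays.

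The promoters of the members were searched for motifs of the pathway. The members were listed as interferon response genes, so an excess of ISRE or GAS motifs follows from that choice and is no separate finding. RefSeq promoter windows (GRCm38.p6, from 250 bases before to 50 after the start) were found for 31 of the 41 members, in 38 windows. The ISRE core GAAANNGAA, searched on both strands, lay in a window of 19 of the 31 members (61.3%), against 9.76% of 27025 genes. The sequence TTCNNNGAA, which GAS elements follow, lay in windows of 10 members (32.3%) against 9.55% of genes. The NF-kB core GGGANTTTC was found in Cxcl9 alone among the members (3.23%, against 1.29% of genes). Only this form was searched, so a gene without a match may hold an NF-kB site of another form. Such a match is a run of letters and no measured binding site. Entries were missing for Cxcl11, Dhx58, Zbp1, Oas2, Usp18, Mx1, Mx2, Rtp4, Parp14 and Iigp1.

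**Figure D2:**
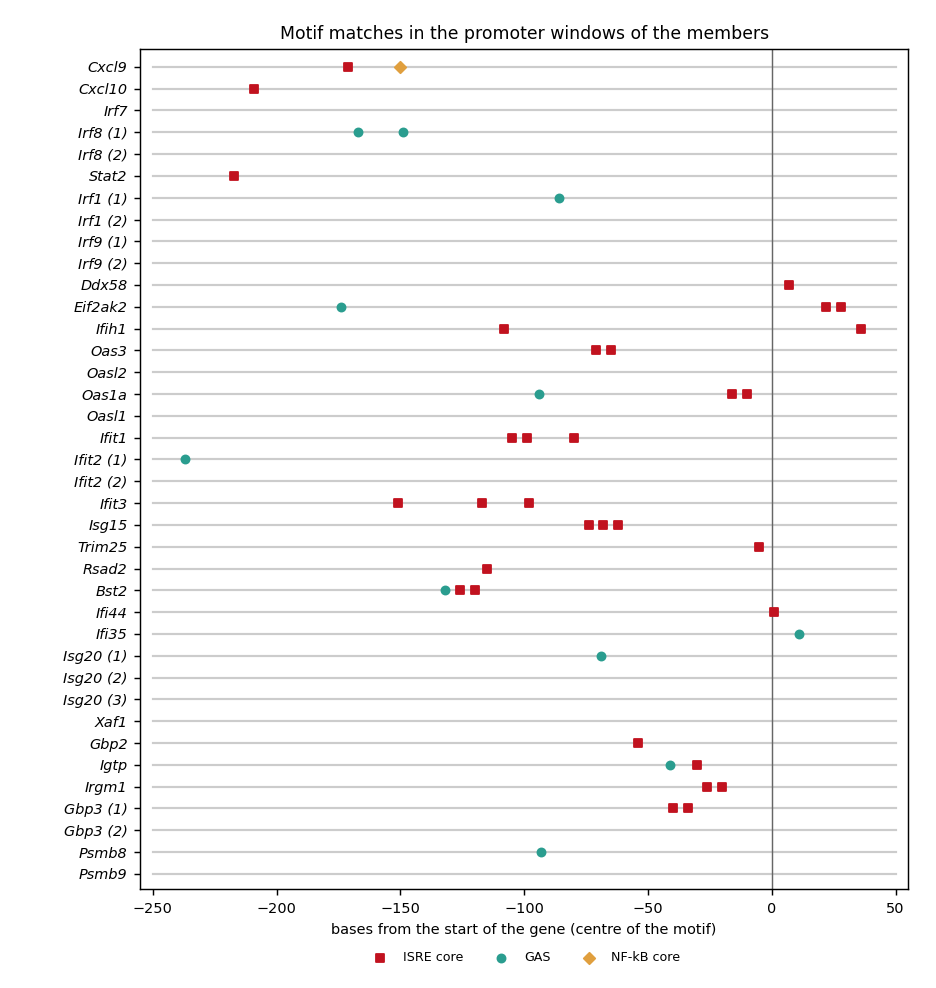
Positions of the motif matches (x axis, bases from the start of the gene) in the 38 promoter windows of 31 members, with a row for each window; a number in brackets marks windows of a gene with several starts. Red squares are ISRE cores, green circles GAS sequences and the orange diamond the NF-kB core. Isg15 and Ifit1 hold 3 ISRE cores each, some of which overlap, and Irf8 holds 2 GAS sequences and no ISRE core.

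The CXCR3 chemokines were compared first, since they are the secreted products of the list. Cxcl9 and Cxcl10 rose from Lin- BM cells to 1 month, while Cxcl11 could be measured at 1 month alone. The promoters of Cxcl9 and Cxcl10 are shown because the chemokine results turn on these genes, with ISRE cores in capitals. The 250 bases before the start lie at chr5:92328080-92328329 on the minus strand for Cxcl9 and at chr5:92348890-92349139 on the minus strand for Cxcl10, and the third chemokine gene, Cxcl11, lies on chromosome 5 too.
Cxcl9: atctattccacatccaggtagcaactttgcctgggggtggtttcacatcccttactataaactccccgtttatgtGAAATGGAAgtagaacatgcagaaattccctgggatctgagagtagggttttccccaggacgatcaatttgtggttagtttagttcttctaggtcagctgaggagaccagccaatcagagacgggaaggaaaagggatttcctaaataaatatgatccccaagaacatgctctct
Cxcl10: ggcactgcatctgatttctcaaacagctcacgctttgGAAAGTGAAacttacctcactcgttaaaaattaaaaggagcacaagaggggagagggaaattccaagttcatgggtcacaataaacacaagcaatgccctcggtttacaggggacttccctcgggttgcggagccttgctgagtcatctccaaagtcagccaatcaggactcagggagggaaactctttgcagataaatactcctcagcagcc
The ISRE core began 175 bases before the start in Cxcl9 and 213 bases before it in Cxcl10, and the NF-kB core of Cxcl9 began at 154 bases.

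Cxcl9 was at -4.02 and -2.77 on the Lin- BM cell arrays L3 and L4 and at 3.19 and 1.91 on the 1-month arrays B1 and B2. The groups were far apart, and the log2 change was 5.95 (SE 0.62, limma adjusted p = 0.00202). Cxcl10 was at -1.26 and -1.19 on L3 and L4, at 5.29 on B1 and at 1.37 on B2. Both 1-month arrays were above both Lin- arrays, but B1 exceeded B2 by 3.92, and the change of 4.56 (SE 1.27, adjusted p = 0.0336) lost its call without L3 (4.53) or L4 (4.59), with the normexp background correction (3.56) and with no filter on dim probes. Cxcl11 was at -6.69 and -6.62 on the Lin- arrays, well above background on neither, and at -2.05 and -3.04 at 1 month. It was at least 3.8-fold higher there (adjusted p = 0.00171), but it passed the filter on dim probes only through the 1-month group, where it had to be high, so its call adds nothing to those of the other two.

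Within the other slide, Cxcl9 was at -1.0 and -0.44 in primary hepatocytes (H2, H4) and at 1.68 and 1.99 at 5 months (G1, G3). A second Cxcl9 probe ran the same way, from -2.64 and -2.03 to -0.39 and 0.01. Cxcl10 was at -1.86 and -2.15 in primary hepatocytes and at 0.45 and 0.07 at 5 months. The arrays of the groups did not overlap for either gene. The differences were 2.55 (SE 0.29) for Cxcl9 and 2.26 (SE 0.25) for Cxcl10, and both missed the threshold over all genes, with adjusted p = 0.0695 and 0.0685 by limma. With H2 or H4 left out the differences were 2.28 and 2.83 for Cxcl9 and 2.40 and 2.12 for Cxcl10. A fit with an array left out rests its spread on the pair of the other group and takes the lone array to vary like that pair.

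Cxcl11 cannot be read in the same way on that slide. Its brighter probe there, at chr5:92788567-92788626 in mm9, lay between 9.0 and 9.47 on all 4 arrays and shared a run of 20 bases with probes of 5 other genes on the design. The dimmer probe, at chr5:92788640-92788699, shared none and was at 2.13 and 3.09 in primary hepatocytes and 3.27 and 2.91 at 5 months, which overlap.

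Across slides and on the scale of the shared probes, Cxcl9 was at -5.40 and -4.29 in Lin- BM cells, -2.70 and -2.11 in primary hepatocytes, 0.06 and 0.32 in 5-month cells, and 1.74 and 0.52 in 1-month cells. The order from low to high was Lin- BM cells, primary hepatocytes, 5 months and 1 month. The neighbours 5 months and 1 month were not told apart (5 months minus 1 month -0.94, SE 0.53, adjusted p = 0.249), while primary hepatocytes exceeded Lin- BM cells by 2.44 (adjusted p = 0.00586) and 1-month cells exceeded primary hepatocytes by 3.54 (SE 0.53, adjusted p = 0.00865). Cxcl10 was at -2.64 and -2.72 in Lin- BM cells and at -3.56 and -3.82 in primary hepatocytes. At 1 month it was at 3.84 and -0.02, and at 5 months at -1.17 and -1.6. Its 1-month level exceeded that of primary hepatocytes by 5.60 (SE 1.09, adjusted p = 0.0197), a call lost without H2 (5.73) or H4 (5.48), and the difference of -3.30 from 1 to 5 months was not called (SE 1.09, adjusted p = 0.0835).

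Of all members, 40 of the 41 passed the filter (well above background on both arrays of a group) in the comparison of 1 month with Lin- BM cells (Mx1 was above background in neither group). Of the 40, 6 were called higher (15%) and 13 lower (32.5%), where 55.3% of the 28535 genes tested were called, 28.8% higher and 26.5% lower. The median log2 change of the members was -0.14, against 0.065 for all genes. The 6 called higher were the 3 chemokines, Iigp1, Ifih1 and Irgm1. Of these calls, that of Cxcl11 came from a gene that passed the filter only through 1 month, and those of Oas2, Oas3 and Ifit2, among the lower ones, from genes that passed only through Lin- BM cells. Over the 35 members above background on all 4 arrays, 8 were called higher and 11 lower, where 34.4% of 21135 such genes were called higher and 22.9% lower. As the arrays read RNA of a whole population, fewer cells of a type and less RNA per cell cannot be told apart. Markers of blood cells were called lower at 1 month too: all 8 general leukocyte markers, all 11 neutrophil markers and 15 of 18 T and NK cell markers. Of these lists, 5, 4 and 7 markers in the same order were well above background on both arrays at 1 month. The others passed the filter only through Lin- BM cells, where they had to be high. The summed linear signal of the leukocyte markers was 346 and 205 in Lin- BM cells and 9.69 and 12.2 at 1 month, and the part of these cells in the falls of the members was not tested. Kupffer cell and macrophage markers, 6 of 15 of which were higher and 2 lower, had summed signals of 30.4 and 55.8 in Lin- BM cells and 24 and 67.9 at 1 month, and markers of sinusoidal endothelium, 6 of 8 of which were higher and 1 lower (median change 4.57), had 4.56 and 7.37, then 62.6 and 72.2. The part of these cells in the rises was not tested either.

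**Figure D3:**
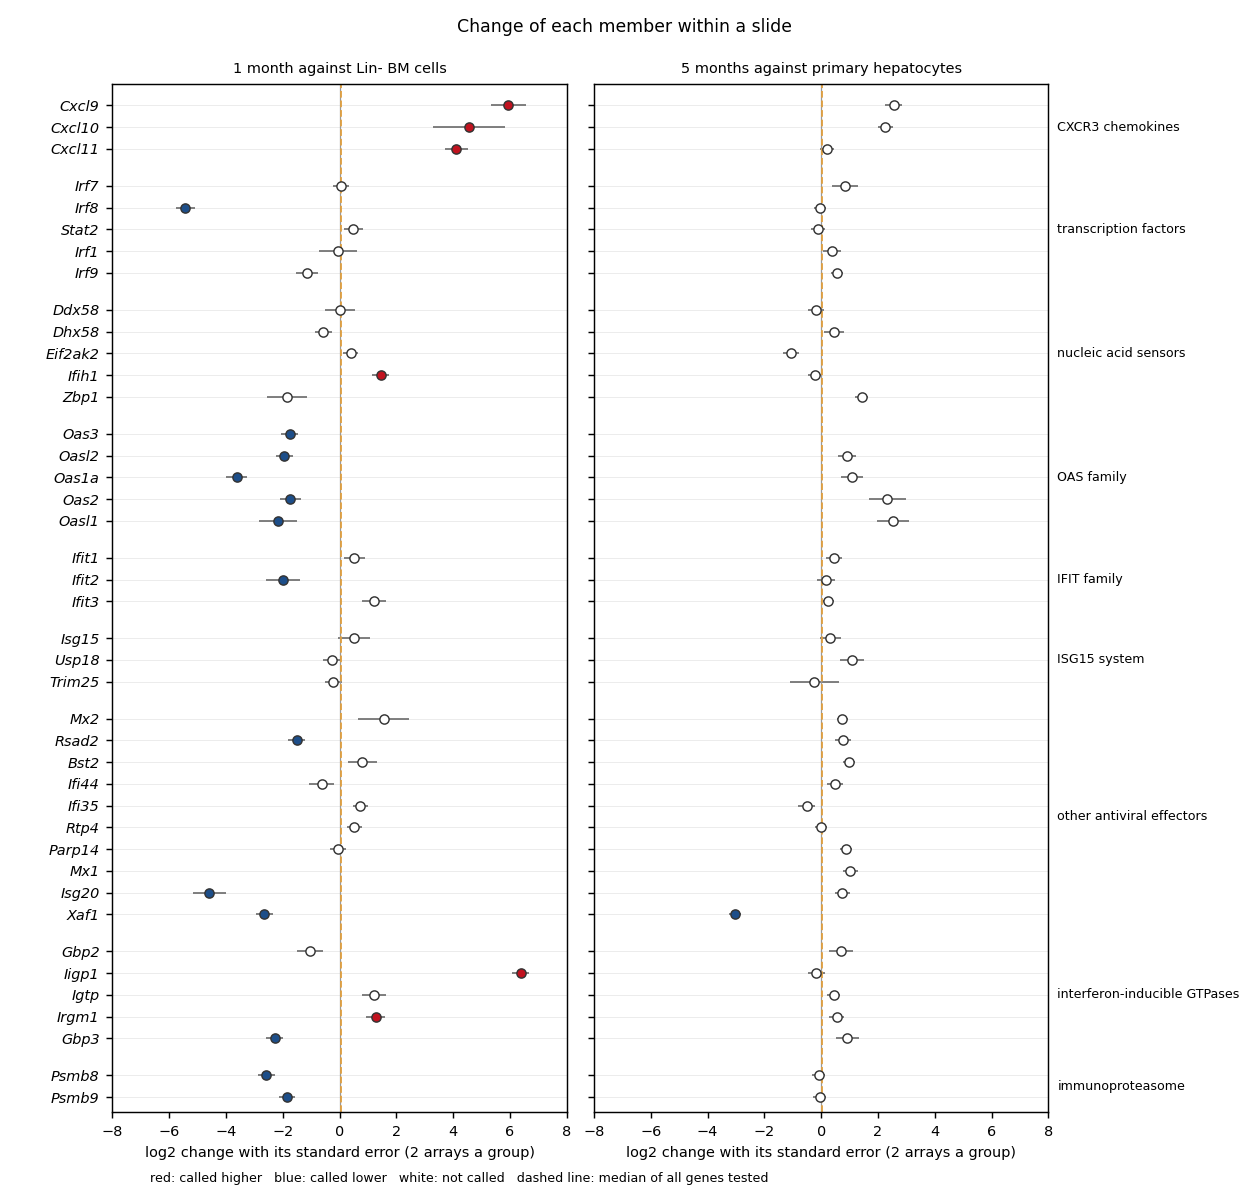
Log2 change of each member with its standard error (x axis, 2 arrays a group) in the 2 comparisons within a slide, with genes grouped by role. Filled symbols were called higher (red) or lower (blue), and the dashed line is the median of all genes tested. On the left 6 members were called higher and 13 lower, and all 5 OAS genes lie left of 0. On the right 28 of 40 members lie right of 0, but Xaf1 is the lone call.

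Among the transcription factors, Irf8 was the one called at 1 month. IRF8 is needed for the monocyte and dendritic cell lineages. It was at 5.5 and 6.05 in Lin- BM cells and at 0.14 and 0.57 at 1 month, so that the groups lay far apart (change -5.42, SE 0.34, adjusted p = 0.0005). By the shared probe it was at -1.55 and -1.52 in primary hepatocytes, -1.64 and -1.43 at 5 months and -1.31 and -0.82 at 1 month, against 4.13 and 4.53 in Lin- BM cells, and it was not called between any 2 of the hepatocyte groups. Irf1, the first factor induced by interferon gamma, was bright in all groups of its slide, at 5.91 and 4.79 in Lin- BM cells and 6.10 and 4.51 at 1 month, and was not called. The arrays of a group lay further apart than the groups. Both promoters held GAS sequences, shown in capitals, at chr11:53769764-53770013 on the plus strand for Irf1 and chr8:120736108-120736357 on the plus strand for the Irf8 start that had them.
Irf1: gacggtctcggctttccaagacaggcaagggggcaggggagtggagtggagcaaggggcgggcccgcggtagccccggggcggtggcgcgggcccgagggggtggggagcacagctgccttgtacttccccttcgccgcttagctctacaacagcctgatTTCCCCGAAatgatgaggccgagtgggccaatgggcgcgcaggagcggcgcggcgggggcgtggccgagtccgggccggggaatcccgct
Irf8: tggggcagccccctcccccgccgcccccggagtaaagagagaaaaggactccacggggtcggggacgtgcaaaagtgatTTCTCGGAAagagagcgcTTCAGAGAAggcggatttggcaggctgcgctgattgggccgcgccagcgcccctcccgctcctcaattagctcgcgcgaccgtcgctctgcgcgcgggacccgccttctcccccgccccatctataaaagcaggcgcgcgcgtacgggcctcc
Stat2 and Irf9, which take part in the complex on the ISRE, were not called in a comparison within a slide. Stat2 was at 1.45 and 1.82 in Lin- BM cells and 2.44 and 1.80 at 1 month. Irf9 was at 1.89 and 2.47, then at 1.37 and 0.68.

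Irf7, which amplifies the production of type I interferon, was called between 1 and 5 months. By the shared probe it was at -3.65 and -4.14 in Lin- BM cells and at -3.77 and -3.88 in 1-month cells. Primary hepatocytes had -3.05 and -2.30, and 5-month cells -2.28 and -1.33. The 5-month arrays were the highest, but G1 lay beside H4, and the 1-month arrays lay among those of Lin- BM cells. The 5-month level exceeded the 1-month level by 2.02 (SE 0.41, adjusted p = 0.0229), a value across slides, and the call was lost without B1 (2.07), B2 (1.96) or G3 (1.55) and with normexp (0.60). Within the slide, 5 months exceeded primary hepatocytes by 0.83, which was not called (SE 0.46, adjusted p = 0.503).

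Of the 5 sensors of nucleic acids, 1 was called at 1 month. Ifih1, the sensor MDA5 for long double-stranded RNA, rose from 0.72 and 1.18 in Lin- BM cells to 2.34 and 2.46 at 1 month (change 1.45, SE 0.29, adjusted p = 0.0132), a call lost without B1 (1.51) or B2 (1.40). Ddx58, which encodes RIG-I, and Dhx58, its relative LGP2, were not called in any of the comparisons. Zbp1, a sensor of Z-form nucleic acid that can trigger necroptosis, was at 1.74 and 0.41 in Lin- BM cells and 0.02 and -1.58 at 1 month, where arrays of a group differed by more than 1. At 5 months Zbp1 was at 1.64 and 2.0, above 0.40 and 0.37 in primary hepatocytes, and the difference of 1.43 (SE 0.23) had adjusted p = 0.123. The difference was 1.44 without H2 and 1.41 without H4. Eif2ak2 encodes PKR, the kinase that stops translation on double-stranded RNA. By the shared probe it was at -0.45 and -0.26 in Lin- BM cells, 0.06 and 0.07 at 1 month, -0.65 and -1.03 in primary hepatocytes, and -1.61 and -2.11 at 5 months. The 5-month arrays were the lowest of the 8, and the fall of -1.92 from 1 to 5 months (SE 0.27, adjusted p = 0.00747), across slides, was called under every alternative but the methods' t-test. Within its slide Eif2ak2 was 1.06 lower on the log2 scale at 5 months than in primary hepatocytes (change -1.06, SE 0.29, adjusted p = 0.254), the other way from most members.

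The OAS enzymes make the oligoadenylates that switch on RNase L, and Oas1a and Oasl2 of the 5 genes of the family fell at 1 month in every setting but the methods' t-test. Oas1a was at 0.45 and 0.92 in Lin- BM cells and at -2.60 and -3.27 at 1 month (change -3.62, SE 0.36, adjusted p = 0.00177). Oasl2 was at 0.39 and 0.23, then at -1.85 and -1.42 (change -1.94, SE 0.29, adjusted p = 0.00557). Oasl1, Oas3 and Oas2 were called lower too, with measured changes of -2.15, -1.76 and -1.73. Oas2 and Oas3 were well above background on 1 of the 2 arrays at 1 month and passed the filter only through Lin- BM cells, where they had to be high. With the normexp correction the changes were -0.10 for Oas3, -0.63 for Oasl1 and -0.0031 for Oas2, and these calls were lost. Oas2 was also not called without L3 (-1.57) or B1 (-1.33), nor Oasl1 without L4 (-1.25), B1 (-2.52) or B2 (-1.79) or with no filter on dim probes.

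At 5 months the 4 genes of the family that were tested had positive changes against primary hepatocytes, and none was called. Oasl1, which restrains the translation of IRF7, was at 1.27 and -0.25 in primary hepatocytes and 2.96 and 3.12 at 5 months (change 2.53, SE 0.55, adjusted p = 0.186). Oas2 was at -3.29 and -1.47, then at 0.04 and -0.15 (change 2.33, SE 0.65, adjusted p = 0.266). Oas1a was at 0.01 and 0.98, then at 1.54 and 1.61. The arrays of the groups did not overlap for any of the 3, and H2 and H4 lay far apart for each. The changes of Oasl1 and Oas2 were 3.29 and 1.41 with H2 left out, and 1.77 and 3.24 with H4 left out. That of Oas1a was 1.57 with H4 left out. By the shared probes, 1-month cells exceeded primary hepatocytes in Oasl2 by 1.56 (SE 0.34, adjusted p = 0.0279), a call lost without H2 (1.15), B1 (1.80) or B2 (1.32). Oas3 was above background on neither primary hepatocyte array and on 1 array at 1 month, where it was at least 2.16-fold higher (adjusted p = 0.00937), a call lost without B2.

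The IFIT proteins recognise foreign RNA, and ISG15 is a ubiquitin-like protein that is attached to other proteins. Isg15, Ifit1 and Ifit3 had 3 ISRE cores each, the most of any member matched, and Isg15 and Ifit1 are shown for that with the cores in capitals, at chr4:156200819-156201068 on the minus strand for Isg15 and chr19:34640639-34640888 on the plus strand for Ifit1. Those of Ifit1 lie on the strand opposite to the one printed.
Isg15: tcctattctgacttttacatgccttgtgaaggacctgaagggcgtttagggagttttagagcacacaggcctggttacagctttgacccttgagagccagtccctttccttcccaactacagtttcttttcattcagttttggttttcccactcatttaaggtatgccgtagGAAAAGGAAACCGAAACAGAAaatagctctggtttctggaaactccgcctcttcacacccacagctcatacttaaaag
Ifit1: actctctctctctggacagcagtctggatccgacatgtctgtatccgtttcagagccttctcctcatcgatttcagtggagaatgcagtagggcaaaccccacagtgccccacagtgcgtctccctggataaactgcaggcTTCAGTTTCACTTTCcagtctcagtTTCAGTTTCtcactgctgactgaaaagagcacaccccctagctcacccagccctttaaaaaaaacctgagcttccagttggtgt
In Isg15 the 3 cores began at 78, 72 and 66 bases before the start and ran into each other, and in Ifit1 those at 109 and 103 did so while the one at 84 stood alone. Isg15 was at -1.28 and 0.26 in Lin- BM cells and 0.17 and -0.19 at 1 month, groups that overlap, and it was not called there nor at 5 months against primary hepatocytes. The Isg15 probe tested at 5 months shared 20 bases with a probe of 1 other gene. A dimmer Isg15 probe that shared none was at -1.44 and -2.10 in primary hepatocytes and -1.60 and -1.57 at 5 months, which overlap. Ifit1 was not called in any comparison. Ifit2 was the IFIT gene that fell at 1 month, from 0.06 and -1.23 to -3.15 and -2.03 (change -2.0, SE 0.60, adjusted p = 0.0409), with B1 not well above background. That call was lost without L3 (-1.36), B1 (-1.44) or B2 (-2.56), with normexp (-0.56) and with no filter on dim probes. By the shared probe Ifit2 was also lower than in Lin- BM cells at 5 months (-3.36, adjusted p = 0.00243) and in primary hepatocytes (-3.57, adjusted p = 0.0018). Usp18, the protease that removes ISG15, was at 0.39 and 1.41 in primary hepatocytes and 1.80 and 2.16 at 5 months. The change of 1.08 (SE 0.42, limma adjusted p = 0.362) was not called, and it was 1.6 without H4. Trim25, the ligase that activates RIG-I, had a probe on the slide of primary hepatocytes that shared 20 bases with probes of 52 other genes and differed by 2.49 between H2 and H4. The other probe there, which shared none, was at 6.30 and 6.33 in primary hepatocytes and 7.05 and 6.86 at 5 months, with no overlap of the groups, and was not the one tested.

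Of the 10 other antiviral effectors, 3 fell at 1 month. Isg20, an exonuclease of RNA, was at 1.70 and 3.29 in Lin- BM cells and -2.17 and -2.0 at 1 month (change -4.58, SE 0.57, adjusted p = 0.00323). Xaf1, an antagonist of the apoptosis inhibitor XIAP, was at 0.02 and -0.26, then at -2.59 and -2.94 (change -2.64, SE 0.29, adjusted p = 0.00227). Rsad2, the enzyme viperin, was at 0.83 and 0.62, then at -1.03 and -0.54 (change -1.51, SE 0.30, adjusted p = 0.0127), a call lost without L3 (-1.41) or B1 (-1.27). Bst2, which tethers budding virus to the cell, was bright throughout, and by the shared probe it was at 2.85 and 4.06 in Lin- BM cells, 4.28 and 4.30 at 1 month, 4.74 and 4.78 in primary hepatocytes, and 5.86 and 5.69 at 5 months. The 5-month arrays were the highest of the 8. The rise of 1.49 from 1 to 5 months (SE 0.39, adjusted p = 0.046) lost its call without B1 (1.48), B2 (1.5), G1 (1.40) or G3 (1.58), with quantile normalization (1.30) and with no filter on dim probes. Within the slide, 5 months exceeded primary hepatocytes by 0.98 (SE 0.20, adjusted p = 0.173). Mx1, a GTPase against influenza virus, was at -4.29 and -4.78 in primary hepatocytes, the latter not well above background, and at -3.66 and -3.36 at 5 months.

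The lone call among 40 members between 5 months and primary hepatocytes was Xaf1, and its probes went opposite ways. One probe, at chr11:72127175-72127234 in mm9, was at 1.89 and 1.76 in primary hepatocytes and at -1.11 and -1.29 at 5 months (change -3.02, SE 0.21, adjusted p = 0.0296). The other, at chr11:72122169-72122228, was at -2.74 and -2.84 and then at -0.18 and -0.20. The first probe was higher in primary hepatocytes and the second at 5 months, with no overlap of the groups in either. Neither probe shared 20 bases with a probe of another gene. With the mean of the probes the change was -0.21 and was not called, so Xaf1 as a gene has no settled direction here. The call was also lost with no filter on dim probes and without G1 (-3.11) or G3 (-2.94). In that comparison 0.552% of the 19933 genes tested were called, 0.366% higher and 0.186% lower, and 2817 had an unadjusted p under 0.05. No member was called higher by limma, where 13 were higher and 2 lower at an unadjusted p under 0.05, and by the methods' t-test 6 were higher unadjusted and 0 adjusted. The median of the members was 0.47, with 70% above 0, against a median of 0.036 and 53.4% above 0 for all genes. The median of the members was 0.53 without H2, 0.46 without H4, 0.53 without G1 and 0.51 without G3. That of all genes was 0.0021, 0.045, 0.074 and -0.0006 in the same order. Beside the members, markers of Kupffer cells and macrophages had positive changes in 14 of the 14 tested (median 0.98) and none was called, and their summed linear signal was 47 and 93.3 in primary hepatocytes and 155 and 156 at 5 months. The general leukocyte markers had positive changes in 8 of 8 (median 0.78) and none was called. Their summed signals of 7.98 and 12.4, then 42.4 and 36.6, held Lcp1 with the largest change (2.45), from 2.33 and 2.78 to 5.09 and 4.92, with Ptprc (CD45) at -3.40 and -3.07, then -2.71 and -2.29. By the shared probes, 6 of the 8 leukocyte markers summed to 3.6 and 4.06, then to 4.77 and 3.45, which overlap, and 9 of the 15 Kupffer cell and macrophage markers to 6.28 and 13.9, then to 30.7 and 28. Whether these cells gave the chemokine signal was not tested.

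The interferon-inducible GTPases guard cells against pathogens in vacuoles. Iigp1 had the widest rise of any member at 1 month, from 0.94 and 0.43 in Lin- BM cells to 7.18 and 6.95 (change 6.38, SE 0.31, adjusted p = 0.000268), and the 1-month arrays differed by only 0.23. By the shared probe it was at -4.01 and -4.96 in Lin- BM cells, 1.71 and 1.57 at 1 month, 1.19 and 0.60 in primary hepatocytes, and 0.22 and 0.15 at 5 months, so all 3 hepatocyte groups lay far above Lin- BM cells. The difference of 0.74 between 1 month and primary hepatocytes was not called (SE 0.37, adjusted p = 0.216). Irgm1, a regulator of autophagy, was at 2.18 and 2.46, then at 3.90 and 3.27 (change 1.27, SE 0.34, adjusted p = 0.0284), a call lost without L3 (1.13), L4 (1.41) or B1 (0.95). Gbp3 fell from 2.99 and 2.60 to 0.68 and 0.35 (change -2.28, SE 0.30, adjusted p = 0.00381). Gbp2 and Igtp differed across slides, and their promoters are shown for that, at chr3:142620413-142620662 on the plus strand and chr11:58199306-58199555 on the plus strand.
Gbp2: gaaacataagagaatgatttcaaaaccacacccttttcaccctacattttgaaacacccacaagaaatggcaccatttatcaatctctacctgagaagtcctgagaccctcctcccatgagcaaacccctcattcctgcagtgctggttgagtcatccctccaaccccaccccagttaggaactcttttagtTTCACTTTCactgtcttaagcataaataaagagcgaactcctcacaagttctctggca
Igtp: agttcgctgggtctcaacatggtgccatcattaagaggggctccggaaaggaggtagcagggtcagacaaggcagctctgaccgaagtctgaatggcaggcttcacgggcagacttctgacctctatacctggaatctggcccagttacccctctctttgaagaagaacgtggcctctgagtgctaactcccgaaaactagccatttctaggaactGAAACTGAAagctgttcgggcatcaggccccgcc
Gbp2, by the shared probe, was at -1.54 and -1.30 at 1 month and at -3.91 and -2.91 in primary hepatocytes (1 month minus primary 1.99, SE 0.52, adjusted p = 0.0462). Igtp was at 3.59 and 2.85, against 1.78 and 1.53 (1.57, SE 0.39, adjusted p = 0.0402). Both calls were lost whenever an array was left out, with values of 1.49 to 2.49 for Gbp2 and 1.2 to 1.93 for Igtp, with quantile normalization (1.87 and 1.48), with the values processed by the authors (1.71 and 1.29) and with the percentile over all probes (1.72 and 1.30).

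The immunoproteasome subunits Psmb8 and Psmb9, which shape peptides for MHC class I, both fell at 1 month. Psmb8 was at 6.05 and 5.75 in Lin- BM cells and at 3.5 and 3.15 at 1 month (change -2.57, SE 0.29, adjusted p = 0.0025). Psmb9 was at 4.99 and 4.97, then at 3.33 and 2.92 (change -1.85, SE 0.28, adjusted p = 0.00587). Both stayed well above background in all groups, and across slides neither was called between any 2 of the hepatocyte groups. Among the members not described singly, Ifit3, Ifi44, Rtp4 and Parp14 were not called in any of the comparisons, with changes at 1 month against Lin- BM cells of 1.2 for Ifit3 (SE 0.43, adjusted p = 0.0644), -0.63 for Ifi44, 0.53 for Rtp4 and -0.06 for Parp14. Ifi35 was called in neither comparison within a slide.

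**Figure D4:**
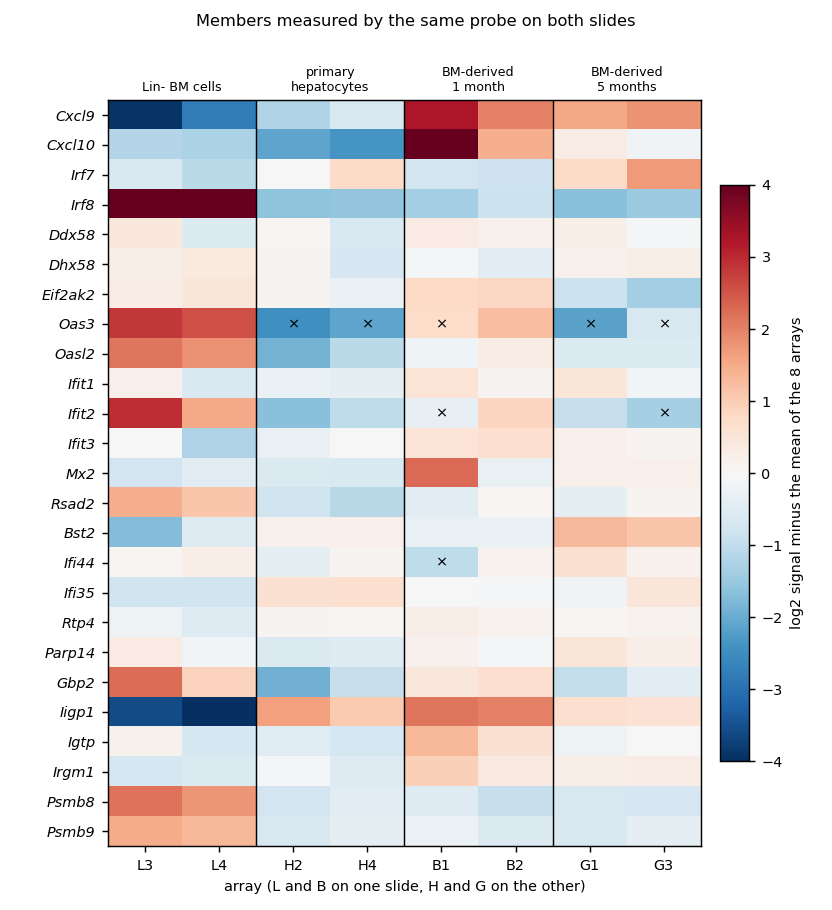
Log2 signal of the 25 members with a shared probe, each minus its mean over the 8 arrays (colour, capped at 4 in either direction), with arrays in columns by group. A cross marks an array where the probe was not well above background. Irf8 is red in Lin- BM cells and blue in every hepatocyte array, and Iigp1 runs the other way. Cxcl9 is blue in Lin- BM cells and in primary hepatocytes, and red in the BM-derived hepatocytes. Cxcl10 and Mx2 are far higher on B1 than on B2.

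Over the 25 members with a shared probe, 6 were called higher at 1 month than in primary hepatocytes (24%) and 0 lower, where 16.5% of 9221 genes were called, 11.5% higher and 5.03% lower. The 6 were Cxcl9, Cxcl10, Oas3, Oasl2, Gbp2 and Igtp, and the median of the members was 0.74 against 0.17 for all genes. The scale of this comparison depends on which probes set the 75th percentile. With all probes of each design the median of all genes moved to -0.094 and that of the members to 0.48. In that setting 4 of the 25 members were called, all higher, where 738 of 9221 genes were called higher and 742 lower. The share of values above 0 moved from 80% to 68% for the members and from 59% to 45.1% for all genes, so that members are read here against the median of all genes. With any 1 of these arrays left out fewer members were called, and fewer of all genes too. From 1 to 5 months 2 members were higher and 3 lower (Irf7 and Bst2, and Eif2ak2, Oas3 and Iigp1), where 16.8% of genes were called, 5.74% higher and 11.1% lower. Fewer members, and fewer of all genes, were called there without B1, B2, G1 or G3. Oas3 was at least 1.78-fold lower at 5 months (adjusted p = 0.0252), a call lost without B1, B2 or G1 and with quantile normalization. Iigp1 fell by 1.46 there (SE 0.37, adjusted p = 0.0417), a call lost with any 1 array of B1, B2, G1 and G3 left out (-1.39 to -1.53), with the values processed by the authors (-1.22) and with the percentile over all probes (-1.23). Against Lin- BM cells, 6 members were higher and 9 lower at 5 months, where 67.1% of genes were called (29.3% higher, 37.8% lower). In primary hepatocytes 5 were higher and 8 lower than in Lin- BM cells, where 67.3% of genes were called (29.3% higher, 38% lower). Cxcl9, Iigp1, Irf7, Bst2 and Ifi35 were higher, and Irf8, Oas3, Oasl2, Ifit2, Rsad2, Gbp2, Psmb8 and Psmb9 lower, in both of these comparisons, which share the Lin- BM cell arrays. At 5 months Irgm1 (0.92) was also higher and Eif2ak2 (-1.51) lower. Calls lost at 5 months were Irgm1 with any 1 array left out (0.86 to 0.99) and Ifi35 without G3 (0.65). Calls lost in primary hepatocytes were Irf7 without L3 (1.47), L4 (0.98) or H4 (0.85), and Bst2 without H2 (1.33) or H4 (1.28) and with quantile normalization (0.67).

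Most members were higher in 1 of the 2 pools at 1 month. Of the 36 members well above background on both arrays, 29 were higher on B1 than on B2, with a median difference of 0.35 on the log2 scale, against 50.7% of 22821 genes above 0 and a median of 0.006. Cxcl10 was 3.92 higher on B1, Mx2 2.63, Zbp1 1.6, Irf1 1.6, Ddx58 1.39 and Cxcl9 1.28. These 6 of 36 were more than 1 higher on B1 and none was more than 1 lower, where 2.2% of genes were more than 1 higher and 3.8% more than 1 lower. Mx2 was at 1.95 on B1 and -0.68 on B2, beside -1.15 and -0.68 on L3 and L4. The difference did not run through the whole list: Rsad2, Irf8 and Oasl2 were 0.48, 0.43 and 0.43 lower on B1, and Iigp1, Bst2 and Isg15 differed by 0.36 or less. It was also smaller in the other genes of the pathway, described below. Of 74 such genes above background on both arrays, 44 were higher on B1, with a median difference of 0.15. Among them 5 were more than 1 higher on B1 and 2 more than 1 lower. Markers of Kupffer cells and macrophages and of leukocytes in general went the other way. The former had a summed linear signal of 24 on B1 and 67.9 on B2, with 10 of 14 markers more than 1 lower on B1. Of the general leukocyte markers 3 of 5 were more than 1 lower. Neutrophil markers were split, with 2 of 4 higher on B1 and a median difference of 0.30. The part of these cells in the difference was not tested. In the array pairs of the other groups the median difference of the members was 0.013 (L3 minus L4), 0.005 (H2 minus H4) and -0.045 (G1 minus G3). On L3, 5 members were more than 1 higher than on L4 and 5 more than 1 lower, where 5.68% and 6.66% of genes were. All 11 neutrophil markers (median difference 3.41), 18 T and NK cell markers (1.4) and 8 general leukocyte markers (0.71) were higher on L3. Of the erythroid markers 0 of 7 were higher on L3 (-1.135), and of those of Kupffer cells and macrophages 2 of 10 (-0.90). The part of these cells in the 1-month changes was not tested. On H2, 1 member was more than 1 higher than on H4 and 3 were lower, where 5.64% and 7.66% of genes were. At 5 months no member differed by more than 1 between G1 and G3, where 1.77% of genes were higher on G1 and 0.843% lower. With 1 array against 1 array these differences have no test.

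**Figure D5:**
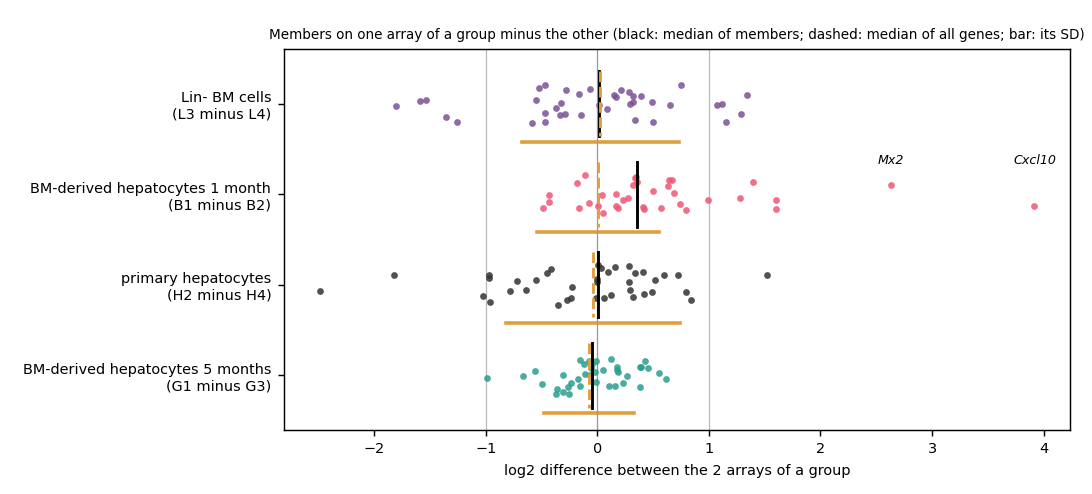
Log2 difference between the 2 arrays of each group (x axis), with a point for each member well above background on both arrays. The black line is the median of the members, the dashed line the median of all genes and the bar below it their SD. The points at 1 month are shifted to the right, with Cxcl10 and Mx2 farthest out, and those at 5 months all lie between -1 and 1.

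The other genes of the pathway were read from a list of 96. Within the slide of Lin- BM cells, 84 were tested, and 14 were called higher (16.7%) and 34 lower (40.5%) at 1 month, beside 28.8% and 26.5% of all genes. Ifng, the gene of interferon gamma, was at 3.96 and 1.94 in Lin- BM cells and at -5.32 and -3.17 at 1 month, above background there on 1 array, and it passed the filter only through Lin- BM cells. Ifna1 and Ifnab, members of a family of closely similar genes, were called higher (1.88 and 1.97), at low signals of -1.14 and -0.44 and of -0.31 and 0.05 at 1 month. Ifnb1 was above background on no array of that slide and on 1 array, at 5 months, of the other. The receptor genes Ifnar1 and Ifngr2 were not called, Ifnar2 rose by 1.32 (adjusted p = 0.0152) and Ifngr1 fell by 2.96 (change -2.96, adjusted p = 0.00124). Cxcr3, the receptor of the chemokines, fell from 3.79 and 2.91 to -2.84 and -2.09 (change -5.81, adjusted p = 0.000875).

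Between 5 months and primary hepatocytes 81 of the 96 were tested, and 3 were called, all higher (3.7%), beside 0.366% of all genes. Ccl4, a chemokine for macrophages and T cells, was at -3.44 and -3.59 in primary hepatocytes and at 0.40 and -0.02 at 5 months (change 3.71, SE 0.25, adjusted p = 0.0278). Ccl2, which draws monocytes, was at -3.71 and -4.01, then at -0.75 and -0.95 (change 3.01, SE 0.23, adjusted p = 0.0356), above background on 1 of the 2 primary hepatocyte arrays, so that it passed the filter only through 5 months. Socs3, a feedback inhibitor of cytokine signalling, was at 2.20 and 1.94, then at 4.44 and 4.45 (change 2.37, SE 0.21, adjusted p = 0.0444). All 3 calls were lost without G1 or G3 and by the methods' t-test, which called no gene in this comparison. Cxcr3 had a change of 0.21 (SE 0.27, adjusted p = 0.783). Across slides Ccl2 and Ccl4 were also higher at 1 month than in primary hepatocytes, by 3.46 (SE 0.59) and 3.21 (SE 0.60), 2 of the 5 of 52 pathway genes called higher there (9.62%), with 4 called lower (7.69%), beside 11.5% and 5.03% of all genes.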

How the data were processed

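RNA of 8 samples was hybridised with Cy3, 1 colour, to Agilent arrays of 2 designs. The deposited scanner files hold spot intensity, background-subtracted and detrended by the authors with Agilent Feature Extraction 11.5.1.1 and not normalized between arrays, with probes placed on mm9 per the file headers. The authors also deposited log2 values shifted to the 75th percentile, used as an alternative. Samples were grouped by their labels. Here control and outlier spots were dropped, spots of a probe averaged, log2 intensity shifted to each array's 75th percentile (of the shared probes across slides), and the brightest probe of a gene tested if well above background on both arrays of a group, with limma 3.58.1 in R 4.3.3 (lmFit, eBayes, Benjamini-Hochberg over all genes). The call rule was an adjusted p below 0.05 with a log2 change larger than 0.6 in size. The steps were tested on simulated data. Values on every array are given for the chemokines and for called or variable members of each role, the rest by counts. The members and lists were chosen with earlier results of these data known. Alternatives were normexp (offset 50), quantile normalization, other filters, the mean of probes, the authors' values, the methods' t-test, the percentile over all probes and leaving out each array. Values of some genes of the lists are not reported here.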

Additional observations from a re-analysis of the deposited data

Results flagged for a closer look

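In 5 members the 1-month and 5-month cells differed by a test of the difference itself, limma on the shared probes of all 8 arrays, with slide and group not told apart. Oas3 had a measured difference of -2.36 (adjusted p = 0.0252) from 1 to 5 months, but it was well above background on 1 array at 1 month and on none at 5 months or in primary hepatocytes. Its values therefore give only bounds, at least 1.78-fold lower at 5 months than at 1 month and at least 2.16-fold higher at 1 month than in primary hepatocytes. Eif2ak2 changed by -1.92 (SE 0.27, adjusted p = 0.00747), from a difference to primary hepatocytes of 0.90 to one of -1.0. Iigp1 changed by -1.46 (SE 0.37, adjusted p = 0.0417), from 0.74 to -0.71. The brighter Iigp1 probe tested within the slide was at 4.39 and 4.10 in primary hepatocytes and 4.39 and 3.77 at 5 months, which overlap. Its change was -0.17 (SE 0.30, limma adjusted p = 0.848). Bst2 changed by 1.49 (SE 0.39, adjusted p = 0.046), from -0.47 to 1.02. Irf7 changed by 2.02 (SE 0.41, adjusted p = 0.0229), from -1.15 to 0.87. Of these, Eif2ak2 was the one called under every alternative but the methods' t-test.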

How the results depend on the processing

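Counts are of members called. Between 1 month and Lin- BM cells, 19 were called, and 4 by the methods' t-test with Benjamini-Hochberg adjustment. Over all 28535 genes that t-test called 2830 higher and 1741 lower, against 8227 and 7555 by limma. With an array left out the counts of members and of all genes fell. In every setting but the t-test 11 of the 19 calls were kept. Between 5 months and primary hepatocytes, where 1 was called, the count was 2 with normexp and 0 with no filter on dim probes. It was also 0 with the mean of probes, by the t-test and with only the shared probes. Over all genes 73 were called higher and 37 lower in the main fit. These numbers were 104 and 54 with normexp, 24 and 14 with no filter, and 73 and 36 with the mean of probes. They were 51 and 45 with only the shared probes, and the t-test called none. The count rose without H2 or H4 and fell without G1 or G3, as did that over all genes. With an array left out the median of the members there was 0.46 to 0.53. Between 1 month and primary hepatocytes, with 6 called, the count was 10 with normexp and 0 by the t-test. Over all 9221 genes normexp called 1841 higher and 565 lower, against 1057 and 464 in the main fit. The t-test called 0 and 2 of them. With an array left out both counts fell. From 1 to 5 months, with 5 called, the count was 3 with quantile normalization and 0 by the t-test. Over all genes quantile normalization called 679 higher and 769 lower, against 529 and 1022 in the main fit. The t-test called 4 and 10, and with an array left out the counts of members and of all genes fell. Against Lin- BM cells the t-test called 7 at 5 months (15 by limma) and 7 in primary hepatocytes (13 by limma). Over all genes it called 1659 higher and 1656 lower at 5 months (2702 and 3482 by limma). In primary hepatocytes it called 1257 and 1225 (2702 and 3504 by limma). Members more than 1 higher on L3 than on L4 numbered 5, and 2 with normexp, beside 5.68% and 2.3% of genes. The causes were not tested. Of 2113 member values under the alternatives, 95 had the other sign, none of them called in either fit. Slide as a block was not run: within a slide it changes nothing and across slides it cannot be estimated. No paired analysis was possible because the groups compared share fewer than 2 replicate numbers. Dim genes (Oas2, Oas3, Ifit2, Mx1) lay at the background on some arrays, which limits their changes.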
